A study of Mus musculus with 32 samples.

Results

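Lungs of mouse pups given a scrambled oligonucleotide, Scrambled 1, were compared at postnatal day 14 with lungs of pups given only the water in which it had been dissolved. The comparison used 8 of the 32 libraries of the series, 4 per group, and the members were chosen by the treatment label and the age. All pups were C57BL/6 mice, and the lungs had been perfused through the heart before RNA was extracted from them. The Scrambled 1 pups had received 10 mg/kg of a custom locked nucleic acid (LNA) inhibitor probe by intraperitoneal injection at postnatal days 1 and 3. The water pups had received nuclease-free water at 10 µl/g by the same route on the same days. Further day 14 groups of 4 libraries served as references. Pups of the Scrambled 2 group had received 10 mg/kg of another LNA probe, which the labels call a new scramble control design, on days 1 and 3. Daily saline pups had been injected with 25 µl/g on every day from 1 to 13, and untreated pups had received no injection. Per the design text, litters were balanced and pups were assigned at random on the day of birth. No label ties a library to its own animal, and each p-value therefore reflects only how far these samples scatter, which may include technical scatter.

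An antimiR is a short, chemically modified oligonucleotide that pairs with a microRNA and keeps it from silencing its messenger RNAs. Locked nucleic acids hold the sugar in a fixed shape, which strengthens pairing and slows breakdown by nucleases. A scrambled probe has the same chemistry in an order of bases meant to match no microRNA, and it is the usual control for effects of the oligonucleotide itself. Oligonucleotides enter cells largely by endocytosis, and some are sensed by Toll-like receptors or by cytosolic nucleic acid receptors, whose downstream targets include interferon-stimulated genes. In the mouse, the second postnatal week is a time of alveolar septation, in which myofibroblasts lay down elastic matrix and the capillary bed is remodelled. The comparison with water asks what the scrambled probe adds to its solvent and to the injections.

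Exon reads per library, which count reads within the exons of a gene, ranged from 8576368 to 10816429 in the Scrambled 1 group and from 9780822 to 11417785 in the water group. Levels are given in CPM (counts-per-million of the exon reads), scaled between libraries by the trimmed mean of M-values. In all 8 libraries the lung was recognised by its defining transcripts, with Sftpc, the surfactant protein C of alveolar type 2 cells, at 10117 ± 834 CPM in Scrambled 1 and 9304 ± 1327 in water (mean ± SD, n = 4). Scrambled 1 replicates 2 and 3 held Xist, the RNA of the inactive X chromosome, at 757 and 586 RPM (reads within the whole gene, on the CPM scale) and no read of the Y-linked gene Ddx3y. The other 6 libraries held at most 1.19 RPM of Xist, so the groups differed in their sex makeup. Among the reference groups, Xist was at 357, 209 and 522 RPM in untreated replicates 2, 3 and 4. It was at 409 and 297 RPM in daily saline replicates 2 and 3, and at 540 RPM in Scrambled 2 replicate 3. Comparisons with these groups, above all with untreated, are therefore also uneven in sex. Water replicate 3 stood apart in transcripts of other tissues. Its skeletal muscle markers summed to 502 CPM against 31.3 to 50.3 in the other 7 libraries, and its adipose markers summed to 706 CPM against 44.6 to 155. The median root mean square distance between libraries, on the log2 scale, was 0.335 within Scrambled 1, 0.378 within water and 0.365 between the groups.

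Of 14179 genes tested, 17 passed the threshold, an adjusted p under 0.05 in edgeR's quasi-likelihood test over the 20 day 14 libraries. They were 0.12% of the genes tested. Of these, 13 rose (0.0917%) and 4 fell (0.0282%) in Scrambled 1. In these 17 genes the 4 Scrambled 1 libraries did not overlap the 4 water libraries, as in 5.45% of all genes tested (3.04% with Scrambled 1 higher and 2.41% with it lower). At an unadjusted p under 0.05 there were 1566 genes, or 11% of those tested, with 804 higher (5.67%) and 762 lower (5.37%). The median log2 difference of all genes was -0.01. The number of genes past the threshold turned on single libraries. It was 9 without Scrambled 1 replicate 1, 39 without replicate 2, 4 without replicate 3 and 3 without replicate 4, and it was 6 without Water replicate 2 and 7 without Water replicate 4. Colq, Slc17a2 and Itih5 passed in each of these fits, and the other 14 genes were lost when Scrambled 1 replicate 4 was left out. Without Scrambled 1 replicates 2 and 3, the libraries high in Xist, edgeR called 0 genes, with 1283 at an unadjusted p under 0.05. In that fit, which has 2 Scrambled 1 libraries, the 13 rises had a median log2 difference of 0.48 against 0.46 with all libraries, and the 4 falls had -0.45 against -0.44. These genes had been picked with the same libraries, so similar medians do not tell whether the differences hold apart from sex. With Xist as a covariate, 2 of the 17 passed.

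**Figure D1:**
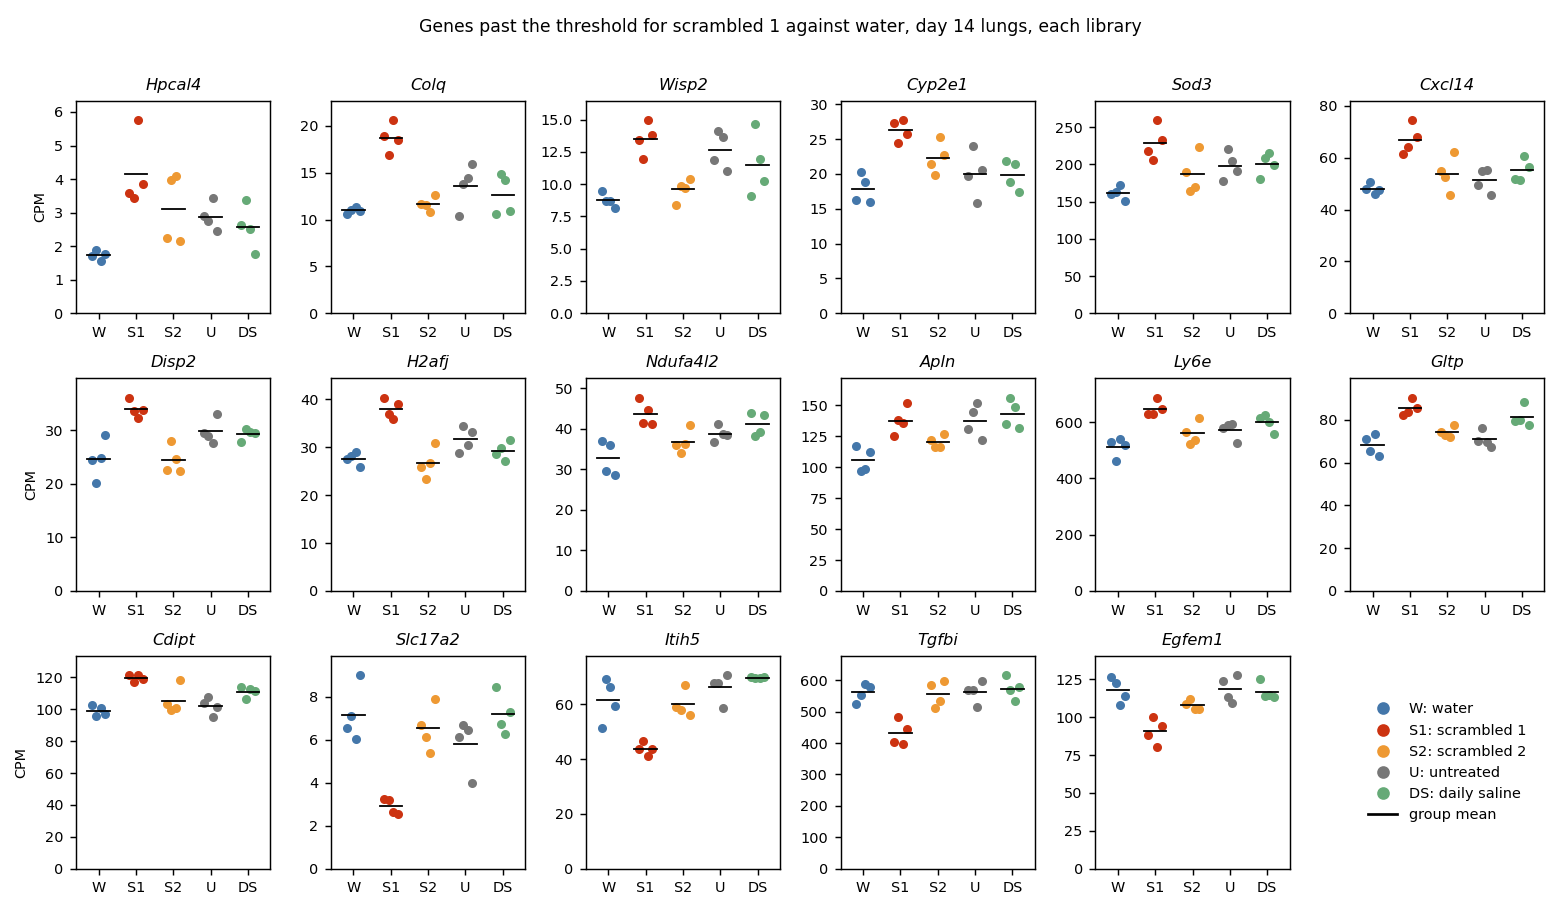
Level in CPM (y axis, from 0) of each of the 17 genes past the threshold in every day 14 library, by group on the x axis; points are libraries and bars are group means (n = 4). In each panel the 4 Scrambled 1 points lie clear of the 4 water points, and for Slc17a2, Itih5, Tgfbi and Egfem1 they also lie under every point of the other groups.

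The gene with the largest fall was Slc17a2 (gene ID 218103, chromosome 13, 23806941 to 23825191, plus strand), a member of the family of sodium-dependent phosphate and organic anion transporters. Its level was 3.23, 3.21, 2.62 and 2.56 CPM in Scrambled 1 replicates 1 to 4, and 6.57, 7.10, 6.04 and 9.01 CPM in the water replicates. Every Scrambled 1 library lay under every water library, and also under the untreated, daily saline and Scrambled 2 libraries, of which the lowest had 4.00 CPM. The fitted level in Scrambled 1 was 0.405 times that in water, a log2 difference of -1.30 (standard error, SE, 0.18, adjusted p = 0.00272). The 95% interval ran from -1.68 to -0.92. The counts behind these levels were small, at 25 to 28 exon reads per Scrambled 1 library and 65 to 86 per water library. Intron reads of Slc17a2 are counted apart from the exon reads, and they gave 1.24 ± 0.167 RPM in Scrambled 1 against 2.06 ± 0.527 in water, again with no overlap. Non-overlapping intron reads were found in 2.78% of all genes. None of the other members of the phosphate transporter list passed the threshold: with Slc17a2, 7 members were tested, 1 had a difference above 0 and the median was -0.07. In this list Slc34a2, the sodium-phosphate cotransporter of alveolar type 2 cells, had a log2 difference of -0.32 (adjusted p = 0.467).

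Itih5, Tgfbi and Egfem1, the other genes that fell, encode secreted or matrix proteins. Itih5 (gene ID 209378, chromosome 2, 10153536 to 10256529, plus strand) is a heavy chain of the inter-alpha-trypsin inhibitor family, whose members bind hyaluronan. It was at 43.9, 46.5, 41.3 and 43.6 CPM in Scrambled 1 and at 51.5, 69.4, 66.4 and 59.5 CPM in water. The Scrambled 1 libraries lay close together and under all 16 other day 14 libraries. The log2 difference from water was -0.50 (SE 0.08, adjusted p = 0.00538, 95% interval -0.66 to -0.33). Its few intron reads went the other way, with 44 reads in the 4 Scrambled 1 libraries and 34 in the 4 water libraries, or 1.17 ± 0.0680 RPM against 0.814 ± 0.228.

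Tgfbi (gene ID 21810, chromosome 13, 56609603 to 56639339, plus strand) encodes a matrix protein, first found as induced by transforming growth factor beta, that binds collagens and integrins. It was the most abundant of the genes that fell, at 415 TPM (transcripts-per-million, a unit per exon length) in Scrambled 1 and 552 in water, against 1.58 and 3.99 TPM for Slc17a2. Its libraries had 403, 482, 396 and 445 CPM in Scrambled 1 and 525, 553, 589 and 580 CPM in water. The highest Scrambled 1 library stayed under the lowest water library, and under the lowest Scrambled 2 and untreated libraries at 510 and 514 CPM. The log2 difference was -0.38 (SE 0.07, adjusted p = 0.0158). Reads across its exon junctions, which are part of the exon reads, also stood apart, at 169 ± 16.4 against 224 ± 13.6 RPM.

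Egfem1 (gene ID 75740, chromosome 3, 29080745 to 29691058, plus strand) encodes a protein with EGF-like and EMI domains. It was at 88.1, 100.1, 80.5 and 94.0 CPM in Scrambled 1 and at 126, 122, 108 and 114 CPM in water, so that the groups were apart. The log2 difference was -0.38 (SE 0.07, adjusted p = 0.0136). Only 52.2% of its exon reads mapped to a single place, so its counts are less certain than those of the other genes. On uniquely mapped reads alone the log2 difference was -0.52, and on all reads of the gene it was -0.22 and missed the threshold (adjusted p = 0.174).

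The bases before the gene record are shown for Slc17a2, Itih5 and Tgfbi, the genes that fell and have a RefSeq promoter entry placed before the gene, and for H2afj, which rose. They were read from the RefSeq promoter table of build GRCm38.p6, in which 10 of the 17 genes had an entry (H2afj under its newer name). All 4 genes lie on the plus strand, and each sequence runs 5′ to 3′ and ends before the deposited gene record. The windows are chr13:23806743-23806940 for Slc17a2, chr2:10153293-10153535 for Itih5, chr13:56609336-56609585 for Tgfbi and chr6:136807998-136808247 for H2afj. Capitals mark matches, on either strand, to the GC box GGGCGG and the CCAAT box CCAAT, which do not overlap each other here.
Slc17a2: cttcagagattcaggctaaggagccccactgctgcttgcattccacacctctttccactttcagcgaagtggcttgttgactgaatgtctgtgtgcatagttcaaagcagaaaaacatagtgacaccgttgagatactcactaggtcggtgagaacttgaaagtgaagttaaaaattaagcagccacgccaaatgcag
Itih5: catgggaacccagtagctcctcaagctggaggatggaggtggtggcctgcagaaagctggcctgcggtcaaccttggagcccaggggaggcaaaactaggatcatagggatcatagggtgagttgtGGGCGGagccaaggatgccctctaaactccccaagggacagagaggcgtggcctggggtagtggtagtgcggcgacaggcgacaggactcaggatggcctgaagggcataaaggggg
Tgfbi: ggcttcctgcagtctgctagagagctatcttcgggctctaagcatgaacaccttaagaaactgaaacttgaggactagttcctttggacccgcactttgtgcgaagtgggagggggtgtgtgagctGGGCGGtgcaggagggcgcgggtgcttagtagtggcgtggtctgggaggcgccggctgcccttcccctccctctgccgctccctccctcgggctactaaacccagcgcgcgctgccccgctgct
H2afj: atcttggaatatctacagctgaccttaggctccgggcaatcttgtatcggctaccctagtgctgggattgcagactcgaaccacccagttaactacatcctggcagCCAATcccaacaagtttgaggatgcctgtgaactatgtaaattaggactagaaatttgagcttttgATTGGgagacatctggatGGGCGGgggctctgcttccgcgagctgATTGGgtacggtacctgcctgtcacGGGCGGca
The Slc17a2 window of 198 bases held no match to either motif, and 24.3% and 28.1% of all 32851 promoters held the GC box and the CCAAT box in a window of that length. Itih5 and Tgfbi each held 1 GC box, which 31.8% and 32.7% of promoters hold in windows of 243 and 250 bases. H2afj held 2 GC boxes and 3 CCAAT boxes, and 33.8% of promoters hold at least 1 CCAAT box in 250 bases. Neither TATAAA nor CACGTG was found in any of the 4 windows. The GC content was 45.5% in the Slc17a2 window, 60.5% in Itih5, 62.4% in Tgfbi and 51.6% in H2afj. These matches describe the letters in the windows and were not tied to any factor.

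Among the secreted and matrix genes that rose, Colq had the steadiest difference. Colq (gene ID 382864, chromosome 14, 31523082 to 31577863, minus strand) encodes the collagen-like tail that anchors acetylcholinesterase in the basal lamina of the neuromuscular junction. It was at 18.9, 16.9, 20.6 and 18.5 CPM in Scrambled 1 and at 10.6, 11.0, 11.4 and 10.9 CPM in water. The Scrambled 1 libraries also lay above the 12 other day 14 libraries, the highest of which was an untreated library at 15.9 CPM. The fold was 1.70 (log2 0.77, SE 0.12, adjusted p = 0.00538). Of 10 tested genes of the acetylcholine list, Colq was the only one past the threshold. The esterase that Colq anchors, Ache, had a log2 difference of 0.12, its relative Bche had -0.13, and Prima1, the membrane anchor of the same enzyme, had -0.15. Skeletal muscle markers summed to 41.5 to 50.3 CPM in Scrambled 1 and to 31.3 to 44.6 in water replicates 1, 2 and 4. In Water replicate 3, where they summed to 502, Colq was at 11.4 CPM.

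Wisp2 (gene ID 22403, chromosome 2, 163820778 to 163833146), also called CCN5, is a secreted matricellular protein. It was at 13.4, 11.9, 14.99 and 13.8 CPM in Scrambled 1 and at 9.50, 8.67, 8.71 and 8.17 CPM in water, a log2 difference of 0.63 (SE 0.13, adjusted p = 0.0376). The Scrambled 1 libraries overlapped the untreated ones, which had 11.0 to 14.1 CPM, while the water libraries lay under all of those. Sod3 (gene ID 20657, chromosome 5, 52363804 to 52369738) is the secreted superoxide dismutase that binds the extracellular matrix. It was at 219, 206, 260 and 232 CPM in Scrambled 1 and at 160, 163, 172 and 151 CPM in water, a log2 difference of 0.50 (SE 0.09, adjusted p = 0.0155). It too overlapped the untreated range of 177 to 220.0 CPM. Of the 26 tested superoxide dismutases and antioxidant genes, Sod3 rose and none fell, 13 had a difference above 0 and the median was 0.00. The cytosolic Sod1 had -0.02 and the mitochondrial Sod2 had -0.19. Gpx3, a secreted glutathione peroxidase, was at 309 ± 31.1 CPM against 216 ± 7.92, with a log2 difference of 0.51 (SE 0.12) that missed the threshold (adjusted p = 0.0886).

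Signalling genes that rose were Cxcl14, Apln and Disp2. Cxcl14 (gene ID 57266, chromosome 13, 56288643 to 56296792, minus strand) is a chemokine made by epithelia and fibroblasts of many tissues. It was at 61.5, 64.0, 74.6 and 67.9 CPM in Scrambled 1 and at 48.0, 50.7, 46.2 and 47.5 CPM in water. All 4 Scrambled 1 libraries exceeded the water, untreated and daily saline libraries, and 1 Scrambled 2 library reached 62.3 CPM. The log2 difference from water was 0.48 (SE 0.08, adjusted p = 0.0133). Of 12 chemokines tested, Cxcl14 was the only one past the threshold, and 10 had a difference above 0, among them Cxcl16 with 0.16 and Cx3cl1 with 0.17.

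Apln (gene ID 30878, chromosome X, 48025146 to 48034852, minus strand) encodes apelin, the peptide ligand of the receptor Aplnr. In the lung, apelin marks the aerocytes, the capillary endothelial cells that lie along the air spaces, and its receptor marks the general capillary cells. Apln was at 125, 138, 135 and 152 CPM in Scrambled 1 and at 117, 97.1, 98.2 and 112 CPM in water, a log2 difference of 0.38 (SE 0.08, adjusted p = 0.0338). Its Scrambled 1 levels overlapped those of the untreated libraries, 122 to 151 CPM, with a log2 difference of 0.00 (SE 0.07). Water was the group at the low end, with a log2 difference of -0.37 from untreated that missed the threshold (adjusted p = 0.0647). No water library was high in Xist, whereas most untreated libraries were, and a part of sex in this difference was not tested. Between water and untreated, 7 of all genes passed (0.0494%), 3 higher (0.0212%) and 4 lower (0.0282%) in water. The receptor Aplnr had a log2 difference of 0.20 (SE 0.06, adjusted p = 0.238).

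Disp2 (gene ID 214240, chromosome 2, 118779702 to 118795175) belongs to the Dispatched family, whose founding member releases hedgehog ligands from cells. It was at 36.1, 33.6, 32.4 and 33.9 CPM in Scrambled 1 and at 24.6, 20.1, 24.9 and 29.2 CPM in water. The Scrambled 1 libraries were above all water and Scrambled 2 libraries, and 1 untreated library reached 33.0 CPM. The log2 difference from water was 0.46 (SE 0.09, adjusted p = 0.0315). None of the other 14 tested genes of the hedgehog list passed, and Disp1 had 0.12 and the hedgehog-binding Hhip 0.15.

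Membrane and lipid genes formed another group. Ly6e (gene ID 17069, chromosome 15, 74955051 to 74959905), an interferon-inducible protein held in the membrane by a lipid anchor, was the most abundant of the 17, at 724 TPM in Scrambled 1 and 585 in water. It was at 629, 628, 687 and 645 CPM in Scrambled 1 and at 529, 462, 540 and 517 CPM in water. The Scrambled 1 libraries were above all 16 other day 14 libraries, of which the highest, a daily saline library, had 625 CPM. The log2 difference was 0.34 (SE 0.06, adjusted p = 0.0161). Gltp (gene ID 56356, chromosome 5, 114669490 to 114690935), which carries glycolipids between membranes, was at 82.3, 83.7, 90.3 and 85.3 CPM against 71.0, 65.6, 73.5 and 63.2 (log2 0.32, SE 0.06, adjusted p = 0.0161). Cdipt (gene ID 52858, chromosome 7, 126975914 to 126980501), the enzyme that makes phosphatidylinositol, was at 121, 117, 121 and 119 CPM against 103, 95.9, 101 and 97.3. Cdipt had the smallest difference of the 17, a log2 value of 0.27 (SE 0.06, adjusted p = 0.0413).

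The intracellular genes were Hpcal4, Cyp2e1, H2afj and Ndufa4l2. Hpcal4 (gene ID 170638, chromosome 4, 123183504 to 123194699), a calcium sensor of the hippocalcin family known mostly from neurons, had the largest rise and the smallest counts, 30 to 55 exon reads per Scrambled 1 library and 17 to 19 per water library. It was at 3.58, 3.44, 5.77 and 3.85 CPM against 1.72, 1.87, 1.55 and 1.78. The fold was 2.40 (log2 1.26, SE 0.25, adjusted p = 0.0315), with replicate 3 of Scrambled 1 well above the others. Water was low here, under all Scrambled 2 and untreated libraries, and the log2 difference between water and untreated was -0.73 (adjusted p = 0.40).

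H2afj (gene ID 232440, chromosome 6, 136808248 to 136810074, plus strand) encodes a variant of histone H2A whose messenger RNA, unlike that of the replication-dependent histones, is polyadenylated. It was at 40.3, 36.8, 35.7 and 38.9 CPM in Scrambled 1 and at 27.5, 28.1, 29.0 and 25.9 CPM in water. The highest of the other day 14 libraries, an untreated one, had 34.4 CPM. The log2 difference was 0.46 (SE 0.08, adjusted p = 0.0136). Of the 10 tested H2A histone genes and relatives, 8 had a difference above 0 with a median of 0.14, and H2afj alone passed. The median was 0.25 without Water replicate 3 and 0.08 without Water replicate 2. In the same list Hist1h2bc had 0.43 (SE 0.10, adjusted p = 0.0801).

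Cyp2e1 (gene ID 13106, chromosome 7, 140763832 to 140774981), the ethanol-inducible cytochrome P450, was at 27.4, 24.4, 27.8 and 25.7 CPM in Scrambled 1 and at 16.3, 20.3, 18.8 and 15.9 CPM in water (log2 0.56, SE 0.11, adjusted p = 0.0315). It was the only one of 17 tested genes of the P450 list past the threshold, and 9 had a difference above 0. Ndufa4l2 (gene ID 407790, chromosome 10, 127509304 to 127517154), a mitochondrial protein that is induced by hypoxia and abundant in pericytes, was at 47.7, 41.5, 44.7 and 41.2 CPM against 36.9, 29.7, 36.1 and 28.6 (log2 0.41, SE 0.08, adjusted p = 0.0338). Its Scrambled 1 levels overlapped the daily saline range of 38.3 to 43.8 CPM and the untreated range of 36.7 to 41.3 CPM. From untreated, Scrambled 1 differed by 0.17 (adjusted p = 0.564) and water by -0.24 (adjusted p = 0.398). The hypoxia list had a median of -0.06 over 24 genes with 8 above 0, and its member Adm had 0.42 (SE 0.12, adjusted p = 0.161). Of the 14 tested pericyte markers, Ndufa4l2 included, 8 were above 0 at a median of 0.04, and the lowest, Rgs5, had -0.33 (SE 0.12, adjusted p = 0.338). The pericyte median was -0.03 without the libraries high in Xist, and the hypoxia median was -0.01 without Water replicate 3. In bulk lung RNA, fewer cells of a type and less RNA per cell cannot be told apart.

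Several genes lay just outside the threshold, and their levels did not overlap between the groups either, as in 5.45% of all genes tested. They were picked by their small p in this same comparison, which favours levels that stand apart. Pappa2, a protease that cleaves binding proteins of insulin-like growth factors, was at 28.8 ± 3.14 CPM against 41.0 ± 5.34 (log2 -0.51, adjusted p = 0.0531). Prss35, a serine protease relative, was at 83.9 ± 7.42 CPM against 108 ± 5.99 (log2 -0.37, adjusted p = 0.0531). Tnc, the matrix protein tenascin C, was at 440 ± 41.4 CPM against 554 ± 20.5 (log2 -0.33, adjusted p = 0.0801), and 85.0% of its reads were unique. Igfbp7, a secreted binding protein rich in capillary endothelium, was at 628 ± 26.2 CPM against 496 ± 24.8 (log2 0.34, adjusted p = 0.0781). Serpina3n, an acute-phase protease inhibitor, was at 18.0 ± 2.30 CPM against 9.52 ± 1.83 (log2 0.92, SE 0.20, adjusted p = 0.0801). The remaining genes of the 13 next by p were Trp53inp2, Ushbp1, Il2rg, Tor3a, Ssbp4, Stmn2 and Ncald, with log2 differences above 0, and Pus7, with -0.36.

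The same Scrambled 1 libraries were set against the Scrambled 2 libraries, given the same dose of a probe of another design on the same days. In that comparison 29 genes passed (0.205%), 19 higher (0.134%) and 10 lower (0.0705%) in Scrambled 1. That count was 0 without Scrambled 1 replicate 1 or without Scrambled 2 replicate 1, at unadjusted counts of 1230 and 1360, and 205 without Scrambled 2 replicate 4. It was 40 without Scrambled 1 replicate 2, 1 without replicate 3 and 1 without replicate 4. Without Scrambled 2 replicates 2 and 3 in turn it was 6 and 3. Scrambled 2 against water gave 0 genes in edgeR, with 755 at an unadjusted p under 0.05 (5.32%). These comparisons share libraries, so the values below stand side by side and are not independent of those against water.

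**Figure D2:**
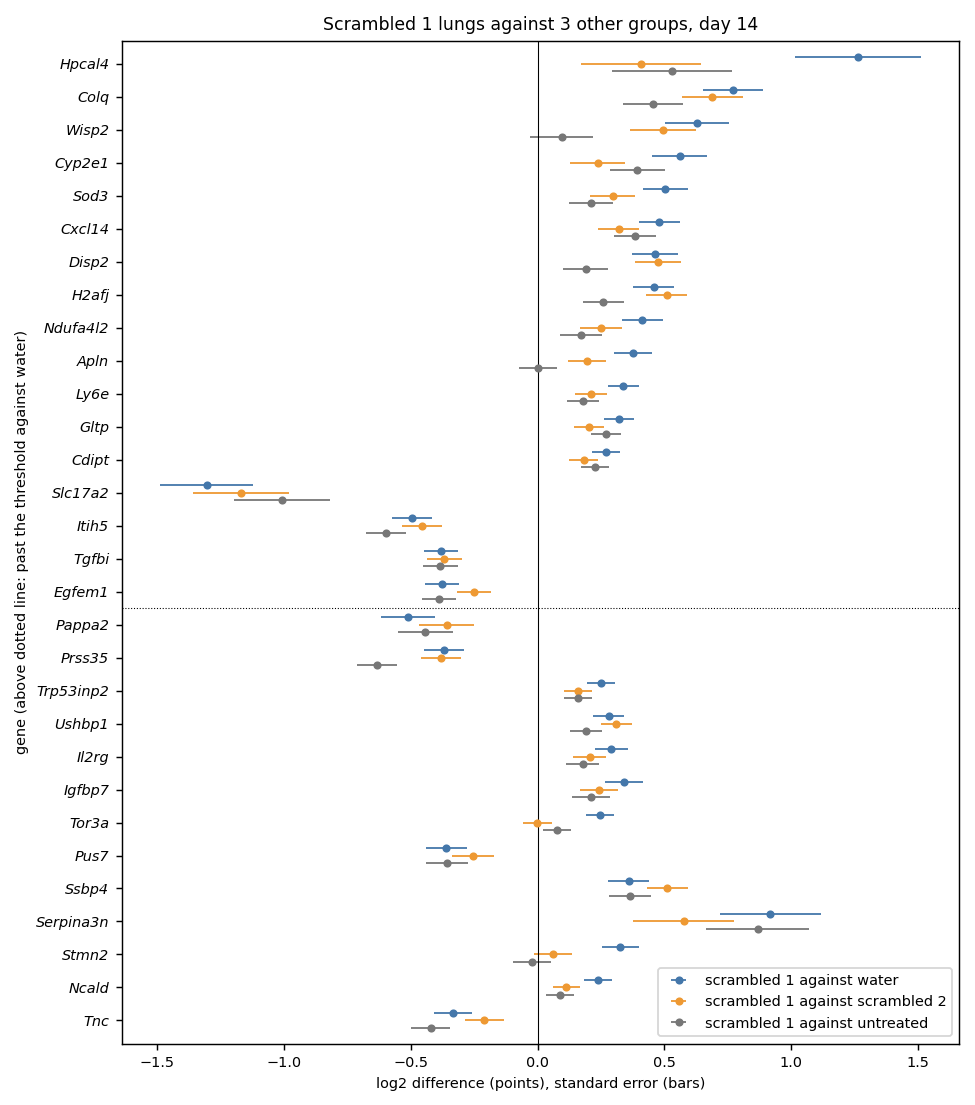
Log2 difference of Scrambled 1 (x axis) from water, Scrambled 2 and untreated for the 17 genes past the threshold against water (above the dotted line) and the 13 next by p; points are fitted differences and bars are 1 standard error. The 3 points of Slc17a2 lie at -1.30, -1.17 and -1.01, and those of Apln spread from 0.38 through 0.19 to 0.00.

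Slc17a2 was at 6.69, 6.12, 5.40 and 7.93 CPM in the Scrambled 2 libraries, all above the Scrambled 1 libraries. Scrambled 1 differed from Scrambled 2 by a log2 value of -1.17 (SE 0.19, adjusted p = 0.00827, 95% interval -1.56 to -0.78), and from untreated by -1.01 (adjusted p = 0.0195). Scrambled 2 and water differed by -0.14 in this gene. Colq, at 11.7, 11.6, 10.8 and 12.6 CPM in Scrambled 2, differed by 0.69 (SE 0.12, adjusted p = 0.0156) between the probes. Itih5, at 56.0 to 67.1 CPM in Scrambled 2, differed by -0.46 (adjusted p = 0.0156). It differed from untreated by -0.60 (adjusted p = 0.000361).

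H2afj differed by 0.51 (adjusted p = 0.00827) between the probes and Disp2 by 0.47 (adjusted p = 0.0279). Tgfbi differed by -0.37 (adjusted p = 0.0258) from Scrambled 2 and by -0.38 (adjusted p = 0.0148) from untreated. The other 11 of the 17 missed the threshold between the probes, and their differences ranged from 0.18 for Cdipt to 0.49 for Wisp2 among the rises, with -0.25 for Egfem1. A miss does not show that the probes acted alike: the 95% interval was -0.08 to 0.89 for Hpcal4 and 0.04 to 0.35 for Apln. Against untreated, Cxcl14 differed by 0.38 (adjusted p = 0.0453), Gltp by 0.27 (adjusted p = 0.0483) and Egfem1 by -0.39 (adjusted p = 0.00826). In the untreated comparison 43 of all genes passed (0.303%), 19 higher (0.134%) and 24 lower (0.169%) in Scrambled 1.

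Against the 16 libraries of the 4 other day 14 groups, the Scrambled 1 libraries were above all for Colq, H2afj and Ly6e and below all for Slc17a2, Itih5, Tgfbi and Egfem1. Such a position was found for 0.324% of all genes, and the choice of genes against water fixes 4 of the 16 libraries. In 0 of the 17 genes was water above or below all other groups, and this was so for 0.162% of all genes. Among the genes next by p, water lay below all other day 14 libraries for Tor3a, Stmn2 and Ncald. For Tor3a, which encodes a torsin ATPase, the difference between Scrambled 1 and Scrambled 2 was -0.00 (95% interval -0.11 to 0.11), against 0.25 from water. Stmn2, a microtubule regulator, had 0.33 from water and -0.02 from untreated. Ssbp4, a DNA-binding protein, had 0.36 from water, 0.51 from Scrambled 2 (adjusted p = 0.00827) and 0.36 from untreated (adjusted p = 0.0484).

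The next groups of genes were described by list, each beside all genes tested, of which 48.3% had a difference above 0 at a median of -0.01. The aerocyte list stood at a median of 0.15, with 13 of 14 tested genes above 0. Apln rose and none fell, and 8 members were higher at an unadjusted p under 0.05, as were 5.67% of all genes tested. Car4, the carbonic anhydrase on the surface of aerocytes, was at 134 ± 6.00 CPM in Scrambled 1 and 112 ± 3.68 in water (log2 0.26, SE 0.07, adjusted p = 0.105). The 14 levels summed to 5017 to 5393 CPM in Scrambled 1, above the 4328 to 4794 CPM of water, and to 4546 to 5024 CPM in untreated lungs. They summed to 4725 to 5279 CPM in Scrambled 2 and to 4795 to 5216 CPM in daily saline, so Scrambled 1 overlapped both. The list median was 0.11 for Scrambled 2 against water and 0.05 for Scrambled 1 against Scrambled 2. Water was lower than untreated by a median of 0.09 in this list. The general capillary markers had a median of 0.10 with 12 of 15 above 0 and none past the threshold, and Plvap, a component of endothelial diaphragms, had 0.32 (SE 0.08, adjusted p = 0.126). The general capillary median was 0.04 without Water replicate 3 and 0.03 without the Scrambled 1 libraries high in Xist, while the aerocyte median was 0.13 in both of these fits.

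**Figure D3:**
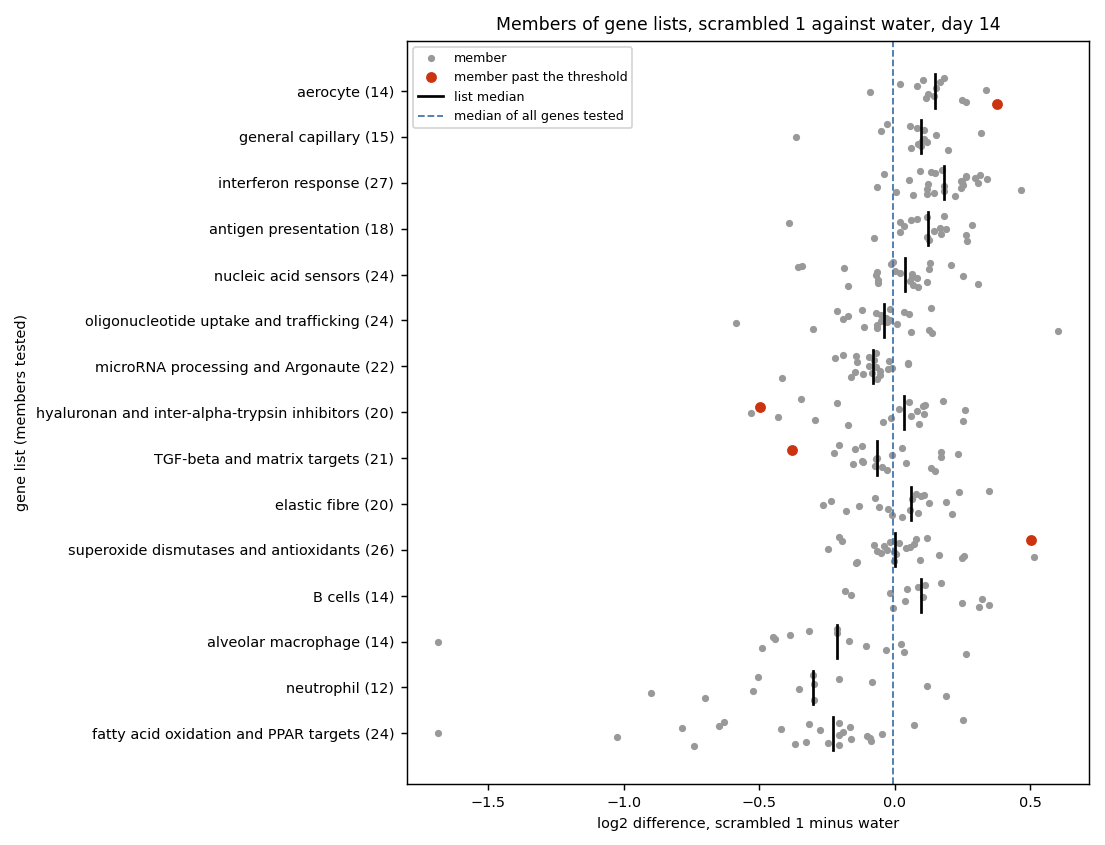
Log2 difference between Scrambled 1 and water (x axis) of every tested member of 15 gene lists (y axis); red points passed the threshold, black bars are list medians and the dashed line is the median of all genes. Aerocyte members lie to the right of the dashed line except for 1 of 14, interferon response members lie around 0.18, and the alveolar macrophage and fatty acid lists lie to the left and depend on Water replicate 3.

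Genes that respond to interferon are a standard readout of oligonucleotide sensing. None of the 27 tested members passed the threshold, 25 were above 0 and the median was 0.18. Among those with the smallest p were Bst2 with 0.22, Oasl2 with 0.26, Rtp4 with 0.32 and Irf7, the factor that amplifies type I interferon, with 0.25. Ifi44 had the largest difference, 0.47 (SE 0.18, adjusted p = 0.363). The summed level was 759 to 843 CPM in Scrambled 1 and 680 to 841 CPM in water, so the groups overlapped. It was 702 to 831 CPM in untreated lungs, and the list median of Scrambled 1 was 0.07 against untreated and 0.22 against Scrambled 2. Against water the median was 0.05 without Scrambled 1 replicates 2 and 3, the libraries high in Xist, with 21 of 27 above 0. With Xist as a covariate it was 0.11, with 23 of 27 above 0. Ly6e, which is interferon-inducible and rose, is not a member of this list. The antigen presentation list had a median of 0.12 with 16 of 18 above 0 and none past the threshold, led by H2-T23 with 0.29 (SE 0.09, adjusted p = 0.254). Its median was 0.05 without Water replicate 2 and 0.07 with the trend on exon length removed, each with 12 of 18 above 0. B cell markers had a median of 0.10 with 10 of 14 above 0, and none passed the threshold. That median was 0.03 without Water replicate 3 and 0.04 without the libraries high in Xist. Of 24 nucleic acid sensors none passed and the median was 0.04, or 0.01 without Water replicate 2 and 0.07 without Water replicate 3. The endosomal DNA receptor Tlr9 had -0.34 and the RNA receptor Tlr7 had -0.19, while Tmem173, which encodes STING, had 0.21.

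No gene of the lists on handling of oligonucleotides and microRNAs passed. None of the 24 tested uptake and trafficking genes passed, 8 were above 0 and the median was -0.04. None of the 22 tested microRNA processing and Argonaute genes passed, and 2 of them were above 0 at a median of -0.08. Without Water replicate 2, 7 were above 0 at a median of -0.06, and with the trend on exon length removed the median was -0.04. The uptake median was -0.02 without Water replicate 3 and -0.00 without the libraries high in Xist. Xpo5, which exports microRNA precursors from the nucleus, was at 37.9 ± 1.07 CPM in Scrambled 1 and 44.2 ± 4.02 in water (log2 -0.22, SE 0.09, adjusted p = 0.376). Ago2, the Argonaute that cuts target RNA, had -0.42 (SE 0.21, adjusted p = 0.476). The RNase H and antisense decay list had 4 of 11 above 0, a median of -0.02 and none past the threshold.

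In each of the matrix lists at most 1 gene passed the threshold, and members differed in both directions. At an unadjusted p under 0.05, 0 of 20 hyaluronan genes were higher and 4 lower. In the transforming growth factor beta list 4 of 21 were higher and 3 lower, and in the elastic fibre list 4 of 20 were higher and 2 lower. Of all genes tested, 5.67% were higher and 5.37% lower at that p. In the hyaluronan list of 20 tested genes, Itih5 fell and none rose, 11 were above 0 and the median was 0.03. Vcan, a large proteoglycan that binds hyaluronan, was at 65.7 ± 9.67 CPM against 83.5 ± 2.30 (log2 -0.35, SE 0.09, adjusted p = 0.105). In the list of transforming growth factor beta and its matrix targets, Tgfbi fell and none rose among 21 tested, with a median of -0.07. The ligand Tgfb1 had 0.23, Tgfb2 had -0.22 (adjusted p = 0.139) and Tgfb3 had 0.17. None of the 20 tested elastic fibre genes passed, the median was 0.06, and elastin itself, Eln, had 0.21. The elastic fibre levels summed to 18943 to 20135 CPM in Scrambled 1, 16639 to 18653 in water and 18417 to 20763 in untreated lungs. Mfap5, a glycoprotein of microfibrils, had 0.35 (SE 0.09, adjusted p = 0.105), and Loxl2, an enzyme that cross-links matrix, had -0.23. Without the libraries high in Xist the hyaluronan median was -0.11 and that of the transforming growth factor beta list was also -0.11, and without Water replicate 2 the latter was -0.04. The elastic fibre median was 0.10 without Water replicate 3, and it was 0.01 once Xist entered the fit as a covariate.

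Lists that follow other tissues moved with 1 library. All 18 skeletal muscle markers were highest of the 8 libraries in Water replicate 3, as were 11 of 12 adipose, 8 of 12 thymus and 10 of 13 cardiac muscle markers. The list medians turned with it: adipose was -1.41 with that library and 0.81 without it, and skeletal muscle was -1.49 and 0.26. The fatty acid oxidation list, with Fabp4 and Cpt1b among its lowest members, went from -0.23 to 0.00. The alveolar macrophage list went from -0.21 to -0.06 and the T and NK cell list from -0.21 to -0.03. None of these lists had a member past the threshold. The number of genes past the threshold was 20 without Water replicate 3, and the 17 genes lay in none of the skeletal muscle, adipose or thymus lists.

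The direction of the differences went with exon length. When the genes were cut into 5 equal classes by exon length, the shortest, with a median of 1386 bases, held 291 genes higher and 40 lower at an unadjusted p under 0.05. The counts were 180 and 103 at 2418.5 bases, 164 and 122 at 3467 bases, and 107 and 184 at 4879.5 bases. In the class of longest genes, with a median of 7938 bases, 62 were higher and 313 lower. The median log2 difference went from 0.06 in the shortest class to -0.06 in the longest. The 13 genes that rose had a median exon length of 2301 bases and the 4 that fell 6053 bases. Short genes exceeded long genes by 0.16, -0.01, 0.04 and 0.05 in the Scrambled 1 libraries and by 0.04, -0.22, 0.09 and -0.14 in the water libraries, measured as the difference of medians on the log2 scale from the mean of all 20 libraries. Water replicates 2 and 4 were thus low in short genes. So were 1 untreated library, at -0.20, and Scrambled 2 replicates 1, 2 and 3, at -0.09, -0.13 and -0.13, while Scrambled 2 replicate 4 was at 0.14. With the trend on length removed from the counts, a fit added after the data had been seen, 31 genes passed, among them all 17.

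**Figure D4:**
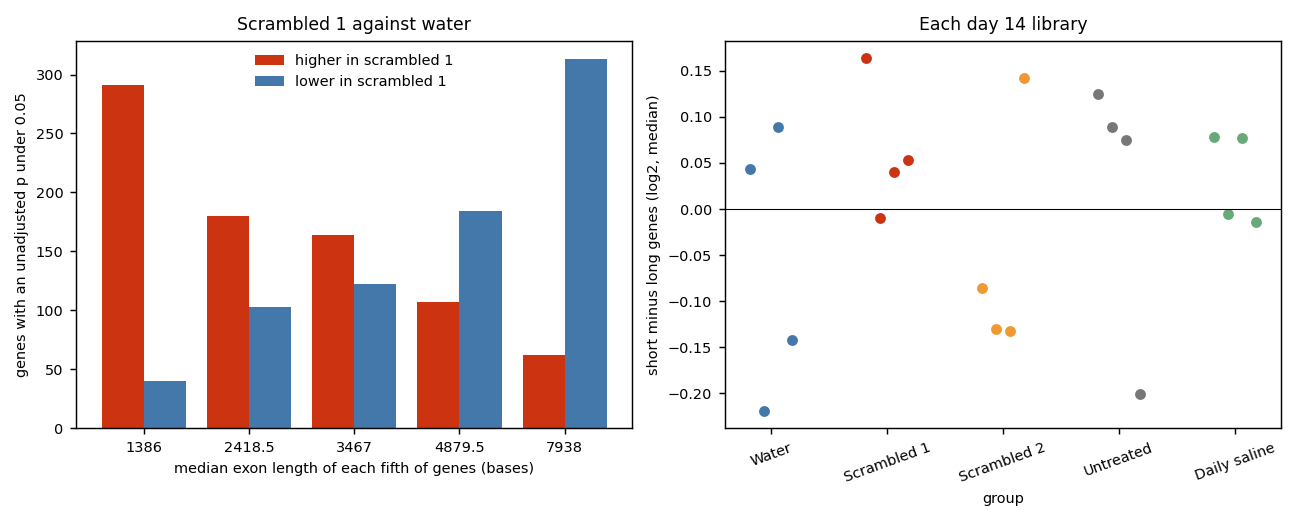
Left, number of genes with an unadjusted p under 0.05 (y axis) that were higher or lower in Scrambled 1 in 5 classes of exon length (x axis, median bases). Right, median of short genes minus median of long genes on the log2 scale (y axis) in each day 14 library by group (x axis). Higher genes go from 291 in the shortest class to 62 in the longest and lower genes from 40 to 313, while Water replicates 2 and 4 lie at -0.22 and -0.14 on the right.

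The share of intronic reads did not separate the groups, at 13.9 ± 0.625% in Scrambled 1 and 14.1 ± 1.42% in water (exact permutation test over 70 splits, two-sided, p = 0.886). Among the 17 genes, reads across exon junctions stood apart in the direction of the exon reads for Colq, Wisp2, Cyp2e1, Cxcl14, Gltp, Tgfbi and Egfem1. They overlapped in the other 10, and for Sod3 the junction mean was lower in Scrambled 1, at 2.68 against 3.10 RPM in water. Junction reads stood apart in 5.08% of all genes, and they are part of the exon reads. Intron reads stood apart for Slc17a2 and, in the opposite direction, for Itih5. They overlapped in the other 15. The intron mean lay on the opposite side from the exon reads in 5 of the 17: H2afj, Ly6e, Cdipt, Itih5 and Egfem1.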

How the data were processed

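Stranded polyA-selected libraries of total lung RNA (TruSeq Stranded mRNA, per the labels' protocols) were sequenced, and the submitters' processing notes name bcl2fastq 2.0. Which aligner, build and strand setting the authors used is not given in the sources used here, so a gene cannot be told from an antisense partner that overlaps it. The authors deposited, for each library, counts of exon, intron, gene and junction reads over 46165 gene records. They also deposited TPM values, which were used only to compare levels between genes. Coordinates are those of the deposited files, and 97.4% of matched gene IDs start within 5 kb of GRCm38.p6.

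Total exon counts, which include reads mapped to several places, were fitted with edgeR 4.0.16 in R 4.3.3 (TMM scaling, filterByExpr, robust quasi-likelihood fit) over the 5 day 14 groups, 20 libraries, with group as the only term. The p-values were adjusted by Benjamini-Hochberg over all 14179 genes tested. The SE was derived from the F statistic, and the median SE of a log2 difference was 0.0927. Xist was read from gene reads because it has no exon reads in the files. The method was tested on simulated data. Replicate pairs had a chi-square per gene of 3.96 to 11.4, so no library was counted as a second sequencing of another. That value cannot tell separate pups from repeat preparations of the same lung.

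The genes named were all 17 past the threshold, the 13 next by p with a mean of at least 1 CPM (predicted, clone-named and Y-linked genes and Xist passed over), up to 4 members of a described list by smallest p, and family members or ligand and receptor pairs fixed in the lists. The members, the gene lists and the tests were chosen with earlier results of these data known. Alternatives were DESeq2 1.42.0, limma 3.58.1 (voom with sample weights), other filters and RLE scaling, unique or all gene reads, 8 or 32 libraries, a replicate block, covariates and each replicate left out.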

Additional observations from a re-analysis of the deposited data

Results flagged for a closer look

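In 72 values checked for a single sample far from the other 3 of its group, 4 were found, and chance marks about 1 in 20 groups. Pus7, a pseudouridine synthase, had 17.1 CPM in Scrambled 1 replicate 4, the highest, against 14.6 to 14.9 in the other 3. Tnc had 523 CPM in Water replicate 2, the lowest, against 561 to 569 in the other 3. The summed level of skeletal muscle markers was 502 CPM in Water replicate 3 against 31.3 to 44.6 in the other water libraries. The summed level of adipose markers was 706 CPM in the same library against 45.9 to 80.9 in the others.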

How the results depend on the processing

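The direction of all 30 named genes against water was kept under every alternative run. These genes were picked by small p in the same libraries and did not overlap between the groups. A turn of direction was therefore hardly possible. The count of genes past the threshold against water, 17 with edgeR, was 98 with DESeq2 (15 of the 17 among them). The other 2, Slc17a2 and Hpcal4, had no adjusted p in DESeq2, at log2 differences of -1.31 and 1.27. The count was 28 with voom, 30 with the intronic share as a covariate and 10 on all reads in genes. It was 2 with Xist as covariate (Slc17a2 and Itih5), and the 13 rises, picked in these libraries, had a median log2 difference of 0.46. With the Xist covariate and without Water replicate 3 it was 22, with 8 of the 17 among them. It was 3 to 39 with 1 replicate left out, 0 without the Scrambled 1 libraries high in Xist and 31 with the length trend removed, the last pair chosen after seeing the data. Other scalings, filters, unique reads and library sets gave counts within 1.5 times, though not always of the same genes. With all 32 libraries 19 passed, 12 of the 17 among them. With only the 8 libraries compared 25 passed, 14 of the 17 among them. When each of the 8 was left out in turn, Hpcal4, Wisp2 and Cdipt passed in 1 of 8 fits and Disp2 in 2. Colq, Slc17a2 and Itih5 passed in all 8. The count between the probes, 29, was 63 with DESeq2, 145 with voom, 64 with the intronic share, 13 with Xist, 6 with only the 8 libraries compared, 17 with all 32, and 0 to 205 with 1 replicate left out. It was 0 without the libraries high in Xist and 44 with the length trend removed. The difference in intronic share, -0.15 percentage points, was -0.55 to 0.51 with 1 replicate left out and turned to 0.01 without Scrambled 1 replicate 1 and to 0.51 without Water replicate 2. The causes of these shifts were not tested, except that fewer libraries enter the fits that leave some out. With the replicate number as a block, 15 genes passed against water (13 of the 17) and 18 between the probes. Libraries with the same number did not vary together (correlations -0.25 to -0.08 between Scrambled 1 and water). They gave no sign of pairing by number, which so few values cannot exclude. With 4 libraries a group and a median SE of 0.0927, small changes in single genes remain hard to detect, and genes with few reads, such as Hpcal4 and Slc17a2, have wider intervals.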

Other observations

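Further lists had no member past the threshold against water. Of 19 tested circadian clock genes, 5 had a log2 difference above 0 and the median was -0.07. At an unadjusted p under 0.05, 2 of them were higher and 7 lower, against 5.67% and 5.37% of all genes tested. Their differences ran from -0.39 to 0.43, the latter in Ciart. Of 20 p53 and DNA damage genes, 16 were above 0 at a median of 0.09. Of 12 neutrophil markers, 2 were above 0 at a median of -0.30, and their summed level was 118 to 150 CPM in Scrambled 1 and 116 to 161 CPM in water. Of 27 cell cycle genes, 8 were above 0 at a median of -0.13, which was -0.08 without Water replicate 3 and 0.01 (14 of 27 above 0) without the Scrambled 1 libraries high in Xist. In this list Cenpf was at -0.33 (SE 0.12, adjusted p = 0.299) and Mki67 was at -0.26 (SE 0.13, adjusted p = 0.49).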
